A study of Rattus norvegicus with 36 samples.

Results

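The comparison described here is one step along an HPTE dose series in rat granulosa cells stimulated with follicle-stimulating hormone (FSH): 3 arrays from cells given 5 µM HPTE with FSH against 3 arrays from cells given 1 µM HPTE with FSH. The 6 arrays were taken by their labels, out of 36 in all. The step was picked with earlier results of these data known, as the one over which most of the FSH response is lost. HPTE is an estrogen-active metabolite of the pesticide methoxychlor. The cells came from immature female Sprague-Dawley rats aged 21 to 27 days, were released from the ovarian follicles by needle puncture without enzymes, and were plated for 24 h with 5% serum. They were then treated for 48 h without serum. Cells of both groups received 3 ng/ml FSH and 0.1 µM androstenedione, the substrate of aromatase, so that the HPTE dose was the difference between them. The same doses were also given to cells with 1 mM cAMP and to cells with neither stimulus (basal), with 3 arrays in each of the 12 groups of the study. The labels speak of triplicate treatment and do not say whether the replicates came from separate animals or cultures, and the p-values therefore reflect only how far these samples scatter, which may be technical.

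FSH acts on granulosa cells through a receptor that couples to adenylyl cyclase, and the cAMP formed activates protein kinase A. In the follicle this signal turns on aromatase, which makes estradiol, together with other enzymes of steroid synthesis, inhibin and the receptor for luteinising hormone. cAMP added to the medium raises the same second messenger without the FSH receptor.

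Expression was measured on Affymetrix rat genome arrays, as one intensity per probe set, a group of short oligonucleotides for a transcript. Levels are given below as log2 intensity and changes as differences of log2 intensity, 5 µM minus 1 µM, so that a difference of 1 is a 2-fold change. All 11 granulosa cell markers measured, among them Foxl2, Inha and Cyp19a1, lay above the arrays' median level. So did 6 of 9 markers of theca and stroma, 4 of 6 of oocytes and 3 of 10 of leukocytes. For endothelium it was 2 of 8 and for surface epithelium 2 of 9. Bulk RNA cannot tell a smaller number of cells of one type from less of a transcript per cell.

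Array number 2 of the 1 µM group stood apart from the other 1 µM arrays. Over all probe sets it correlated with r = 0.9911 with array number 1 at 5 µM, the highest of the 15 pairs among the 6 arrays, against r = 0.9728 and 0.9618 with arrays number 1 and 3 of its own group. Array number 3 at 1 µM was likewise closest to an array at 5 µM, number 3, with r = 0.9844, against 0.9771 and 0.9618 within its own group. Calls that change without array number 2 at 1 µM are given below for the genes and lists described. The arrays numbered 3 differed from the rest in the 3' to 5' signal ratio of the control transcripts, a measure of RNA integrity. For Gapdh the log2 ratio was 2.07, 1.95 and 0.80 in the 5 µM arrays and 1.82, 1.95 and 0.85 in the 1 µM arrays, so that the low value occurred once in each group (exact two-sided permutation test, p = 0.8, where the smallest possible p is 0.1, n = 3 each). For actin the ratio averaged 3.02 ± 0.93 at 5 µM and 3.18 ± 0.86 at 1 µM (SD, n = 3 each, exact permutation p = 0.7). At 0 µM HPTE, array number 2 of the FSH group had Cyp19a1 at 7.48, against 11.49 and 11.46 in the other FSH arrays, and array number 2 of the cAMP group had it at 11.01, against 7.62 and 6.46. Those 2 arrays go against their labels and are outside the dose step. They enter below where genes are sorted by their response to FSH at 0 µM, and they add to the error of the shared fit.

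At 5 µM HPTE, transcripts that FSH raises were lower and transcripts that FSH lowers were higher than at 1 µM. Because the step was picked for this loss, the direction is a description and no independent evidence. Of 14217 genes, 253 changed (1.78%), 156 of them higher (1.1%) and 97 lower (0.682%) at 5 µM, by limma fitted over all 36 arrays with an adjusted p under 0.05. Changes of at least 2-fold were found for 93 genes that rose (0.654% of all) and 66 that fell (0.464%). Counted in probe sets, 424 of 31042 changed (1.37%), 259 higher (0.834%) and 165 lower (0.532%), and 2552 had an unadjusted p under 0.05 (8.22%). In 422 of the 424 5 µM differed from 1 µM the same way in each of the 3 array numbers, and in 403 the 2 groups did not overlap. The 424 were called on the difference of these same arrays, so both counts follow in part from that selection. Over all probe sets, groups without overlap made up 4.19% with 5 µM higher and 5.67% with 5 µM lower. With the array number as a block, 1599 probe sets changed (5.15%, 981 or 3.16% higher and 618 or 1.99% lower), the 424 among them. In genes this was 978 (6.88%), of which 605 rose (4.26%) and 373 fell (2.62%). Without array number 2 at 1 µM, 1119 probe sets changed (628 higher, 491 lower), and 660 genes (4.64%), of which 363 rose (2.55%) and 297 fell (2.09%). The fit of the 6 arrays alone, with a spread estimated from 3 arrays a group, called none, although 1834 probe sets had an unadjusted p under 0.05. Leaving out single arrays gave 74 (array number 1 at 1 µM) to 1119 probe sets, and 21 passed without the arrays numbered 3 in any group.

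The response of these genes to FSH itself can be read from other group means than those of the dose step. These are the means of FSH-treated and basal cells at 0 µM HPTE. Both tests take their error from the shared fit over all arrays, so a gene with little scatter can pass both more easily. The overlaps of calls below therefore do not come from separate arrays. Over all probe sets FSH changed 8.06% at 0 µM, 3.88% higher and 4.18% lower. Among the 156 genes higher at 5 µM, 147 passed the test of FSH against basal cells at 0 µM, and FSH lowered all 147. Among the 97 genes lower at 5 µM, 91 passed it, and FSH raised all 91. Without the 2 arrays that go against their labels the counts were 140 and 91. Taken from the other side, 315 genes were called and at least 2-fold higher with FSH at 0 µM. Of these, 74 fell at 5 µM (23.5%, against 0.682% of all genes) and none rose, and their median difference was -0.91, against -0.03 for all genes. FSH lowered 441 genes by the same criteria, of which 117 rose at 5 µM (26.5%, against 1.1% of all genes), none fell, and the median difference was 0.85. These counts moved with single arrays: the 74 became 17 without array number 1, 177 without number 2 and 25 without number 3 at 1 µM, and the 117 became 25, 238 and 35. Without number 2 or number 3 at 5 µM they were 29 or 46 and 42 or 62, and without the arrays numbered 3 in any group 2 and 9. With the array number as a block 196 of the FSH-raised genes fell and 1 rose, and 328 of the FSH-lowered genes rose and none fell. In each of these fits the FSH-raised and FSH-lowered genes were chosen anew, so these counts are not shares of the 315 and 441. In the scatter of all genes the called genes lie at the upper left and the lower right.

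**Figure D1:**
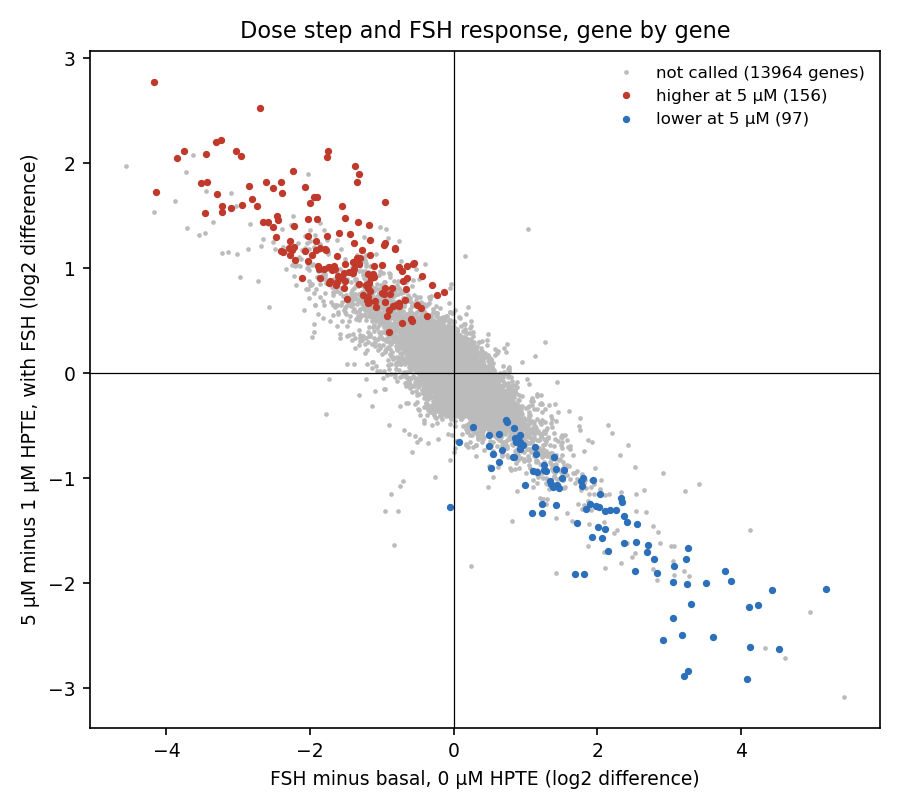
Each point is a gene: the horizontal axis is the log2 difference between FSH-treated and basal cells at 0 µM HPTE, and the vertical axis the log2 difference between 5 and 1 µM HPTE in FSH-treated cells. The 156 genes called higher at 5 µM (red) lie to the left and the 97 called lower (blue) to the right, with 1 exception, Il13ra2 at -0.05.

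The exception was Il13ra2, a receptor chain for interleukin 13. It fell by 1.28 ± 0.30 at 5 µM (SE, limma adjusted p = 0.0246), with a difference between FSH and basal cells at 0 µM of -0.05 (adjusted p = 0.997), and it was named after its values were seen. The other genes called in the dose step but not for FSH at 0 µM were Akr1c15, Car3, Cldn1, Colec11, Lrrc39, Reln, Sh3bp5, Testin and Vash1, which rose, and Irs3, Kcnk5, Nap1l2, Tigd3 and Tmem38b, which fell.

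The level of the FSH-raised genes at 5 µM was close to that of basal cells. Their median level was 7.55, 7.23 and 7.51 in the 3 arrays at 5 µM with FSH, against 8.99, 7.84 and 8.72 at 1 µM with FSH. The groups did not overlap, and array number 2 at 1 µM was the nearest to 5 µM. Basal cells at 1 and 5 µM ranged from 6.91 to 7.21. The FSH-lowered genes had median levels of 9.01, 9.37 and 9.24 at 5 µM, against 7.78, 8.76 and 8.08 at 1 µM, again with array number 2 at 1 µM the nearest to the other group. Basal cells at 1 and 5 µM lay between 9.32 and 9.46. Number by number, the median difference of the FSH-raised genes was -1.24, -0.46 and -1.03, and that of the FSH-lowered genes 1.07, 0.48 and 1.02, smallest in pair 2 for both. Without array number 2 at 1 µM, with the genes chosen anew in that fit, the medians were -1.18 and 1.08.

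**Figure D2:**
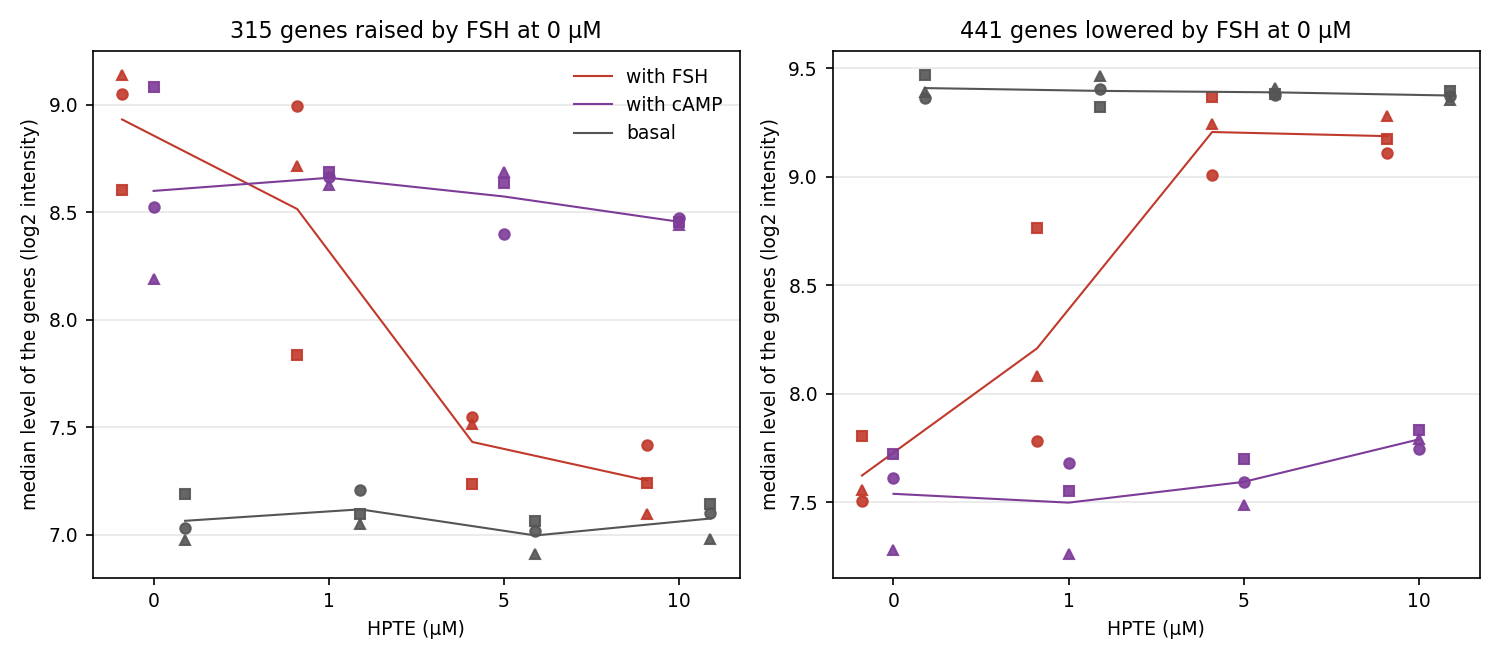
Median log2 intensity of the 315 genes raised (left) and the 441 genes lowered (right) by FSH at 0 µM, in each array, by HPTE dose and stimulus. Symbols mark the array number (circle 1, square 2, triangle 3) and lines join group means. With FSH, the arrays at 5 µM lie near the basal arrays. Arrays number 1 and 3 at 1 µM lie nearer to 0 µM and number 2 nearer to 5 µM, while the levels with cAMP stay apart from basal levels at all doses.

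A choice of stimulus genes whose group means use neither the dose 0 arrays nor the FSH arrays was made as well. The error of its test came from the shared fit, which includes those arrays, so calls in both tests are not independent. Over all probe sets cAMP at 1 µM HPTE changed 8.71% against basal cells, 4.24% higher and 4.47% lower. It raised 290 genes at least 2-fold, of which 78 fell in the FSH dose step (26.9%, against 0.682% of all genes). None rose, and the median difference was -0.78. cAMP lowered 475 genes, of which 121 rose (25.5%, against 1.1% of all genes) and none fell, with a median of 0.81. The 78 became 18, 145 and 26 without array number 1, 2 and 3 at 1 µM, and the 121 became 28, 232 and 40. Without number 2 or number 3 at 5 µM they were 32 or 50 and 45 or 65, without the arrays numbered 3 in any group 2 and 8, and with the block 186 and 333, with none in the other direction. The cAMP genes were chosen anew in each of these fits, so these counts are not shares of the 290 and 475. Seen from the called genes, 77.6% of those higher at 5 µM were among the genes cAMP lowered, and 80.4% of those lower were among the genes cAMP raised. Of all 14217 genes, cAMP lowered 475 and raised 290 by these criteria.

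The same dose step was measured in basal cells and in cells given cAMP. In basal cells no probe set passed (331 at an unadjusted p under 0.05, 1.07%), and the medians of the FSH-raised and FSH-lowered genes were -0.01 and -0.00312. With cAMP no probe set passed either (2113 at an unadjusted p under 0.05, 6.81%), and the medians were -0.03 and 0.08. The difference of the step between stimuli was tested directly. It passed for 3 probe sets between FSH and basal cells (0.00966% of those tested, all higher, 1125 or 3.62% at an unadjusted p under 0.05) and for 10 between FSH and cAMP cells (0.0322%, 8 or 0.0258% higher and 2 or 0.00644% lower, 1325 or 4.27% at an unadjusted p under 0.05). With the array number as a block these counts were 32 and 124, and without array number 2 at 1 µM they were 203 and 237.

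Of the genes behind those differences, C1qtnf7, a secreted protein of the C1q and tumor necrosis factor family, passed both tests. Its levels with FSH were 8.06, 8.76 and 8.37 at 5 µM, against 5.79, 6.75 and 6.38 at 1 µM. All 5 µM arrays lay above all 1 µM arrays. The step was 2.09 ± 0.20 (SE) with FSH, a 4.25-fold rise (limma adjusted p = 2.34e-06), 0.22 ± 0.20 in basal cells, where its mean level was 8.78 at 1 µM, and 0.10 ± 0.20 with cAMP, where that level was 5.197. The step with FSH exceeded that in basal cells by 1.86 ± 0.29 (adjusted p = 0.0189) and that with cAMP by 1.99 ± 0.29 (adjusted p = 0.00302).

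Ptgis, the synthase of prostacyclin, was at 9.44, 10.12 and 9.94 in 5 µM FSH cells, against 8.10, 8.62 and 8.02 in 1 µM FSH cells, without overlap. Its step of 1.59 ± 0.22 (SE, adjusted p = 2.55e-04) exceeded that in basal cells by 1.86 (adjusted p = 0.03) and that with cAMP by 1.81 (adjusted p = 0.0322). Lmna, which encodes the nuclear lamins A and C, rose by 1.17 ± 0.15, 1.25 more than in basal cells (adjusted p = 0.03), while its other probe set gave 0.59 (adjusted p = 0.55). Esm1, the secreted proteoglycan endocan, stood at 6.38, 7.48 and 7.15 at 5 µM, against 4.66, 5.21 and 4.80 at 1 µM. Its rise of 2.11 ± 0.22 (adjusted p = 6.95e-06) exceeded the step with cAMP by 2.29 (adjusted p = 0.00278). In basal cells Esm1 moved by 0.95 ± 0.22 (adjusted p = 1), and the difference from that step, 1.17 ± 0.32, did not pass (adjusted p = 0.433). Gpc3, a cell-surface heparan sulfate proteoglycan, and Vldlr, a lipoprotein receptor, also rose by more with FSH than with cAMP (differences 1.60 and 1.35, adjusted p = 0.0322 and 0.0456). The other probe set of Gpc3 gave a step of -0.01, and the other 3 probe sets of Vldlr gave 1.13 to 1.25 and did not pass (adjusted p = 0.225 to 0.393). Igdcc4, an immunoglobulin superfamily member, fell by 1.19 with FSH, and its step was lower than that with cAMP (difference -1.37, adjusted p = 0.0456). Of the 10 probe sets, 4 carried no single gene name.

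The 12 largest falls without overlap between the groups ranged from -2.92 to -2.07. Npas2, a circadian transcription factor that pairs with BMAL1, was at 7.49, 5.42 and 6.79 at 5 µM, against 10.00, 8.39 and 10.05 at 1 µM. This was a 7.54-fold fall (-2.92 ± 0.46, SE, limma adjusted p = 5.81e-04), with array number 2 the lowest of each group. Smoc2, a secreted calcium-binding matrix protein, was at 6.55, 7.46 and 6.33, against 10.15, 9.02 and 9.84, a difference of -2.89 ± 0.39 (adjusted p = 1.35e-04), while its other 2 probe sets gave -0.16 and -0.65 and did not pass. Acsbg1, an acyl-CoA synthetase, fell by 2.83 ± 0.41 and Hao2, a peroxisomal hydroxy acid oxidase, by 2.07 ± 0.40. The conjugating enzymes Gstm7, a glutathione transferase, and Inmt, a methyltransferase, fell by 2.61 and 2.19. Havcr1 (-2.63) is a receptor for phosphatidylserine on dying cells, Tgfbi (-2.54) a matrix protein, and Cgnl1 (-2.52) a protein of cell junctions. Myrip (-2.49) links secretory vesicles to myosin and Scg2 (-2.33) is a granin of secretory granules. The 12th gene was Nxpe2 (-2.23). Cgnl1 and Myrip had other probe sets that did not pass, and the other probe set of Nxpe2 did (-1.15). Leaving out 1 of the 6 arrays at a time, 7 of these genes missed the threshold in at least 1 fit, namely Havcr1, Cgnl1, Myrip, Scg2, Nxpe2, Inmt and Hao2 (highest adjusted p = 0.0618 for Nxpe2 to 0.357 for Inmt), each of them without array number 1 at 1 µM.

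The 12 largest rises without overlap ranged from 2.78 to 1.92. S1pr1, a receptor for sphingosine 1-phosphate, was at 9.02, 9.46 and 9.74 at 5 µM, against 5.58, 8.07 and 6.23 at 1 µM, a 6.86-fold rise (2.78 ± 0.39, SE, adjusted p = 2.77e-04), while its other probe set gave -0.22 and did not pass. All 5 µM arrays were above all 1 µM arrays, of which number 2 was the highest. Mfap5, a protein of the microfibrils, rose by 2.22 ± 0.50, Esm1 by 2.11, C1qtnf7 by 2.09 and the secreted glycoprotein Reln by 1.97 ± 0.44. Cpe, which trims peptide hormone precursors, was at 13.30, 13.37 and 13.23 at 5 µM, against 10.16, 12.73 and 10.67 at 1 µM (2.11 ± 0.45, adjusted p = 0.0125). The groups were separate, with array number 2 at 1 µM the nearest to the 5 µM arrays. Sytl2, an effector of the vesicle GTPase Rab27, rose by 2.11, Tcim by 2.20, the protease inhibitor Spink8 by 2.07, Pamr1 by 2.05 and the pyrophosphate exporter Ankh by 1.92. The amino acid transporter Slc7a3 rose by 2.06 ± 0.36. With 1 array left out at a time, Mfap5, Cpe, Pamr1 and Reln missed the threshold in at least 1 fit (highest adjusted p = 0.193, 0.244, 0.0583 and 0.175), each of them without array number 1 at 1 µM. Meox2, a homeobox factor, rose by 2.52 but its groups overlapped, and it was named after its values were seen.

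**Figure D3:**
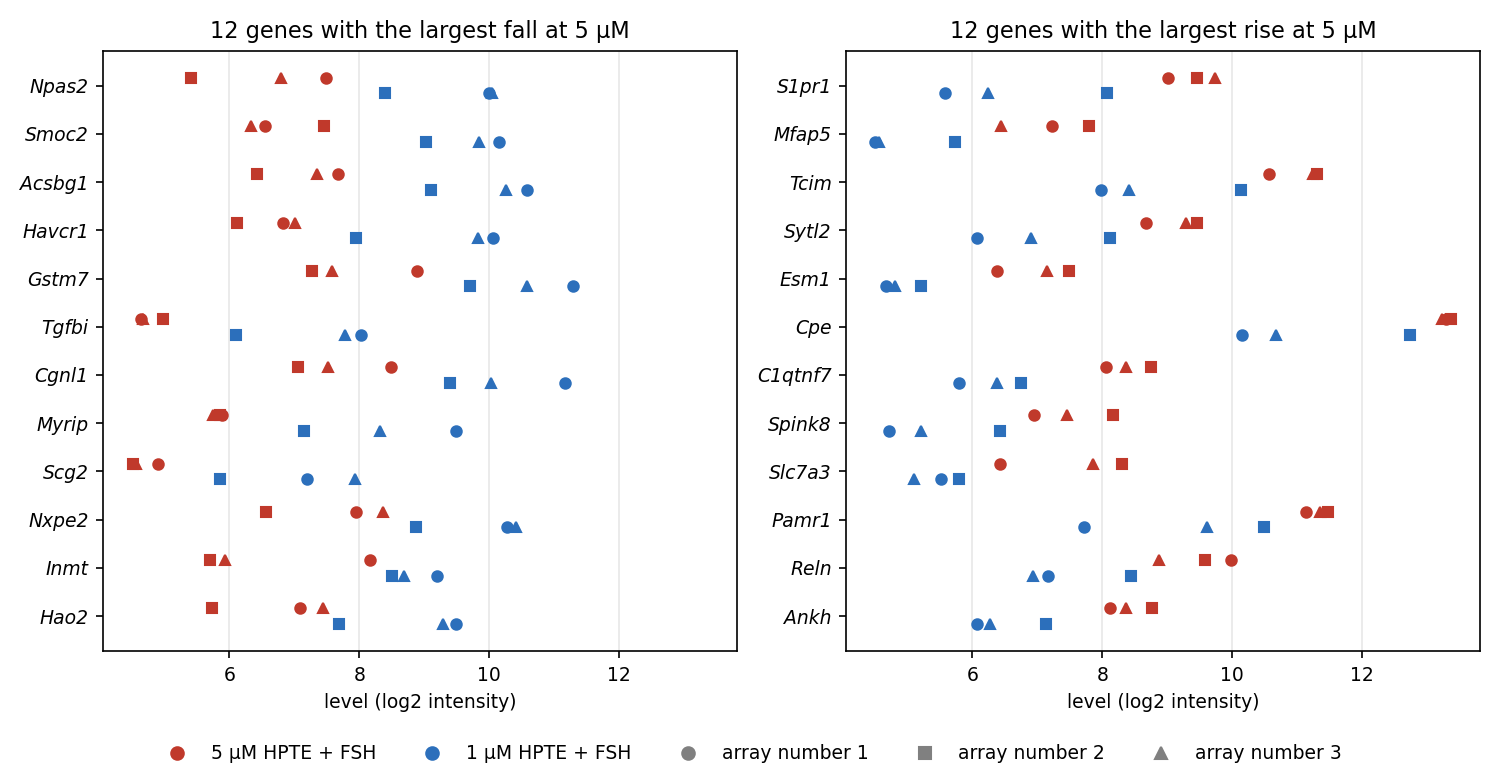
Log2 intensity in each of the 6 arrays for the 12 genes with the largest fall (left) and the 12 with the largest rise (right) among called genes whose groups do not overlap, with 5 µM HPTE in red above 1 µM in blue. In all 24 genes array number 2 at 1 µM (blue square) is the 1 µM array nearest to the 5 µM arrays.

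The pathways were read from 35 gene lists, which hold 473 distinct measured genes. All lists were chosen with earlier results of these data known, so the shares below are no independent evidence. Of the 473 genes, 14 rose (2.96%, against 1.1% of all genes) and 10 fell (2.11%, against 0.682%) at 5 µM. Of these, 3 of the falls and 6 of the rises belong to 1 list of 11 genes drawn from earlier results of these data. With the array number as a block 44 rose (9.3%, against 4.26% of all genes) and 34 fell (7.19%, against 2.62%), and without array number 2 at 1 µM 28 rose (5.92%, against 2.55%) and 24 fell (5.07%, against 2.09%). Of the list genes named below as called, Lrp8, Prkar2b, Sik1, Myh9, Col4a2, Crabp2, Nupr1, Klf6 and Cd14 missed the threshold in 3 or 4 of the 6 fits that leave out 1 array (highest adjusted p = 0.089 for Col4a2 to 0.581 for Nupr1). Receptors and the cAMP pathway come first. Of 14 receptors, Egfr alone passed, and it fell (0.682% of all genes did). Its levels were 7.70, 6.76 and 7.12 at 5 µM, against 9.47, 8.28 and 9.14 at 1 µM (-1.77 ± 0.28, SE, adjusted p = 8e-04). Prlr, the prolactin receptor, differed by -2.71 ± 0.75 (adjusted p = 0.0733, 0.0158 with the array number as a block, and 0.00588 without array number 2 at 1 µM). Amhr2, the receptor of anti-Müllerian hormone, was lower with the block (-0.70, adjusted p = 0.762, 0.0333 with the block). Agtr2, an angiotensin receptor, was higher without array number 2 at 1 µM (3.16, adjusted p = 0.00508, against 2.07 and 0.209 with it). Lhcgr, the receptor for luteinising hormone that FSH induces, was at 7.48, 5.43 and 8.26 at 5 µM, against 10.15, 7.80 and 11.07 at 1 µM. Its groups overlapped, and neither fit called its difference of -2.62 ± 1.00 (adjusted p = 0.301, and 0.131 with the block). Of 33 genes of cAMP formation, breakdown and feedback, 2 fell (0.682% of all genes did). They were Prkar2b, a regulatory subunit of protein kinase A (-0.58 ± 0.14), and Sik1, a kinase that cAMP induces and that restrains CREB coactivators (-1.23 ± 0.29). None of the 33 rose in that fit, and their median was -0.11. With the block Sgk1, a kinase, was also lower (-0.88, adjusted p = 0.0705, 0.0198 with the block) and Akap12, an anchor of protein kinase A, higher (1.42, 0.143, 0.0405). Without array number 2 at 1 µM 6 were lower (2.09% of all genes were), and Akap12 was higher. The genes added were Pde4d, a phosphodiesterase of cAMP, the transcription factor Crem and the small GTPase Gem (adjusted p = 0.0248, 0.0344 and 0.0376). The catalytic subunits Prkaca and Prkacb differed by 0.02 and 0.00 with all arrays. The FSH receptor was not analysed here.

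Among 14 granulosa cell transcription factors, Nr5a1 (steroidogenic factor 1, an activator of steroid enzyme genes) fell (0.682% of all genes) and none rose. It was at 7.16, 7.22 and 7.32 at 5 µM, against 9.24, 8.07 and 9.22 at 1 µM, with no overlap (-1.61 ± 0.23, SE, adjusted p = 2.35e-04). Without array number 2 at 1 µM the difference was -1.998 (adjusted p = 3.91e-07). Nr5a2, its close relative, was at 8.99, 8.13 and 9.86, against 10.82, 9.42 and 11.59. It was lower at 5 µM in each of the 3 array numbers although the groups overlapped (-1.62 ± 0.53, adjusted p = 0.165, 6.35e-05 with the block, and 0.0179 without array number 2 at 1 µM). Cebpa, a factor of granulosa cell maturation, was lower in all 5 µM arrays than in any at 1 µM (-1.46, adjusted p = 0.154, 0.00209 with the block). Foxl2 and Gata4, which maintain granulosa cell identity, differed by -0.32 and -0.73 and passed neither test. The transcriptional corepressor Nrip1, of the list of steroid receptors and their partners, fell by 0.80 ± 0.12 (adjusted p = 4.97e-04), while the estrogen receptor gene Esr2 differed by -0.18.

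None of 15 steroid synthesis genes passed. Of their differences 13 were below 0, against 8046 of all 14217 genes, and their median was -0.95, against -0.03 for all genes. With the array number as a block 5 of the 15 passed, all lower at 5 µM (2.62% of all genes were). Without array number 2 at 1 µM 2 passed, both lower (2.09% of all genes), Cyp19a1 and Cyp17a1, which makes androgens. Cyp17a1 then differed by -1.82 (adjusted p = 0.00478), against -1.25 and 0.149 with that array. It is also one of the theca and stroma markers, and its mean over the 6 arrays did not lie above their median level. Cyp19a1 (aromatase) was at 9.03, 5.08 and 8.26 at 5 µM, against 11.37, 9.03 and 11.23 at 1 µM. It was lower at 5 µM in each array number, with array number 2 lowest in both groups, and the groups just overlapped, between array number 1 at 5 µM and number 2 at 1 µM. The difference of -3.08 ± 0.95 (SE) was the lowest of all 14217 genes and missed the threshold (adjusted p = 0.121, 0.0426 with the block, and 0.0312 without array number 2 at 1 µM). Cyp11a1, which makes pregnenolone from cholesterol, was at 11.31, 8.41 and 9.84, against 12.79, 11.40 and 12.18. All its 5 µM arrays were below its 1 µM arrays (-2.27 ± 0.79, adjusted p = 0.206, 0.0047 with the block). Fdx1, the ferredoxin that passes electrons to Cyp11a1, differed by -1.65 ± 0.63 (adjusted p = 0.314, 0.0353 with the block), and Hsd3b1 by -1.05 ± 0.42 (0.363, 0.0481). Star, which carries cholesterol into mitochondria, was at 10.56, 9.55 and 8.92, against 11.96, 9.64 and 10.30. The groups overlapped and neither fit called it (-0.95 ± 0.54, adjusted p = 0.781, 0.0645 with the block). Star differed in its later dose course: its mean with FSH was 11.11, 10.63, 9.68 and 10.84 at 0, 1, 5 and 10 µM, while that of Cyp11a1 was 12.21, 12.12, 9.85 and 7.84. Without the 0 µM array that goes against its label, the 0 µM means were 11.37 for Star and 12.66 for Cyp11a1 (n = 2).

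**Figure D4:**
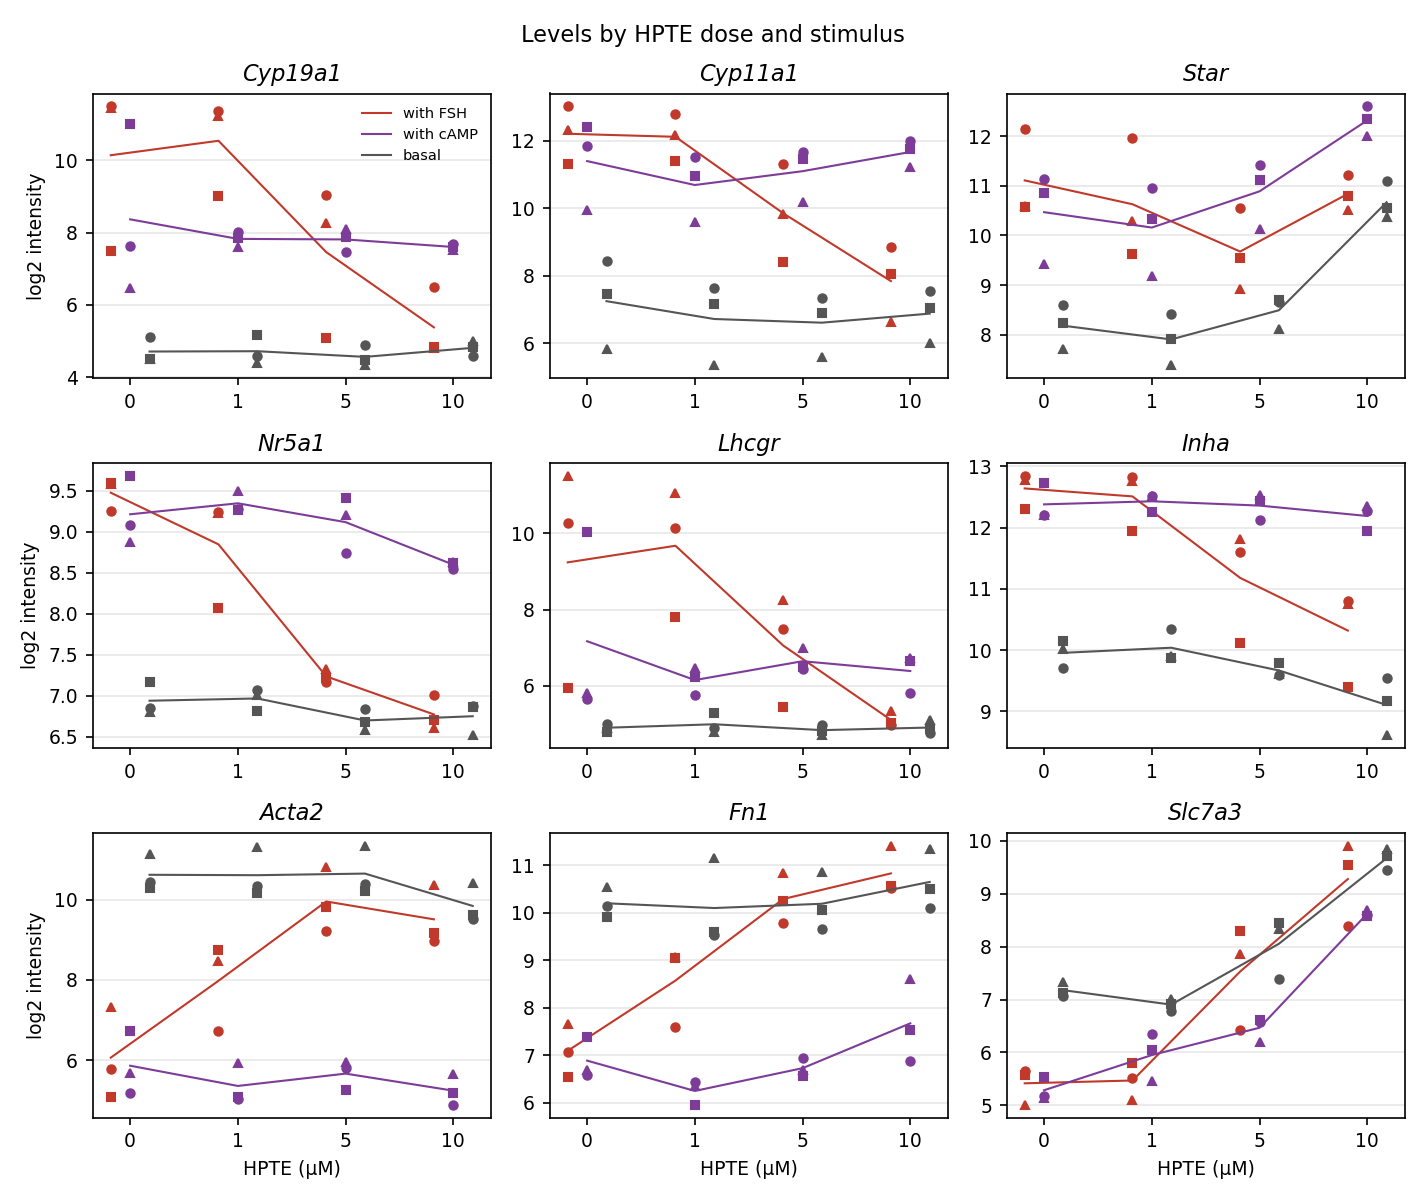
Log2 intensity in each array for 9 genes, by HPTE dose and stimulus, with circles, squares and triangles for array numbers 1, 2 and 3 and lines through the group means. With FSH, Cyp19a1, Cyp11a1, Nr5a1, Lhcgr and Inha are lower and Acta2, Fn1 and Slc7a3 higher in the mean at 5 µM than at 1 µM, and Star is lowest in the mean at 5 µM.

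The promoters below belong to the steroid synthesis genes and granulosa cell factors with the lowest differences. Of these genes Nr5a1 alone passed the test, and all passed with the array number as a block. The windows run from 250 bases before to 50 bases after the transcription start in RefSeq's annotation of GRCr8. They were searched on both strands for TGACGTCA, the cAMP response element, its part TGACG, CAAGGTCA, the full motif of the Nr5a factors, its part AGGTCA, and TGATGNAA, a motif of the amino acid response. AGGTCA is in capitals where it occurs. Cyp11a1 lies at chr8:67318415-67318714 (plus strand), Fdx1 at chr8:61183596-61183895 (minus strand), Nr5a2 at chr13:50984889-50985188 (minus strand) and Nr5a1 at chr3:42895997-42896296 (minus strand). The Cyp19a1 promoter is named only.
Cyp11a1: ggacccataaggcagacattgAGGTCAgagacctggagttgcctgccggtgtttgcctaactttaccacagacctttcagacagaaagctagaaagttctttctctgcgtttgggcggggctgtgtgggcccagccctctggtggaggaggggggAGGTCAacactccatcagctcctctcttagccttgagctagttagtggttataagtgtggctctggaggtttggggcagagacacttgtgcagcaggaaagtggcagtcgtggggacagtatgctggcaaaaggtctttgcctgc
Fdx1: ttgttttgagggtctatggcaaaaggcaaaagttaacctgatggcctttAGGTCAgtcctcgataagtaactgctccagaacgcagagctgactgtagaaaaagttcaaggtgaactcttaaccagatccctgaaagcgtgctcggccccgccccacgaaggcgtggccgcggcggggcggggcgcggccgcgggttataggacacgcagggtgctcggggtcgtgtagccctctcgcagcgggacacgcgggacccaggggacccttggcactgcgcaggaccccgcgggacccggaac
Nr5a2: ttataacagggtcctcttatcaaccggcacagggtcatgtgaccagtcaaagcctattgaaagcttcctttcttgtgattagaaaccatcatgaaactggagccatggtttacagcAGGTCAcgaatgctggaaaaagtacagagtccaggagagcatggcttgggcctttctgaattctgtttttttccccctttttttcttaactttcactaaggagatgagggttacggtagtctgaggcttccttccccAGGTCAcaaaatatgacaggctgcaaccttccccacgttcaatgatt
Nr5a1: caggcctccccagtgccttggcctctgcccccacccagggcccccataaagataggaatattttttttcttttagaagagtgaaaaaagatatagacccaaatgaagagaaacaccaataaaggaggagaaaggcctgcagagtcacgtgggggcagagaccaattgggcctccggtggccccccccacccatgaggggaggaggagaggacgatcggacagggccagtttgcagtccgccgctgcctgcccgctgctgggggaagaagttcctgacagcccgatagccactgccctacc
With the start as position 1, AGGTCA begins at -229 and -95 in Cyp11a1, at -201 in Fdx1, and at -134 and 4 in Nr5a2. None of the 5 motifs was found in the Nr5a1 window. Of all 33469 promoter windows 16.2% hold AGGTCA, so a match in one window is common, and 1.83% hold TGACGTCA. A gene can have several windows or none. Among the 97 windows of genes that fell at 5 µM, which belong to 76 genes, 4.12% hold AGGTCA and 5.15% (5 windows) hold TGACGTCA. Among the 127 windows of genes that rose, which belong to 116 genes, the shares were 4.72% and 1.57%. These shares also depend on base composition and are descriptions with no test.

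Of 13 genes of cholesterol supply, 1 rose and 1 fell (1.1% and 0.682% of all genes did). Vldlr was at 11.24, 11.13 and 11.45 at 5 µM, against 9.70, 10.47 and 10.14 at 1 µM (1.17 ± 0.18, SE, adjusted p = 5.11e-04). Lrp8, a receptor of the same family, fell by 1.03 ± 0.20 (adjusted p = 0.00594). Scarb1, the receptor that takes up cholesterol from high-density lipoprotein, was at 9.31, 8.09 and 9.37, against 11.51, 9.29 and 11.73, and differed by -1.92 ± 0.51 with overlapping groups (adjusted p = 0.0581, 0.0047 with the block, 8.59e-04 without array number 2 at 1 µM). None of 19 genes of cholesterol biosynthesis passed either fit, and their median was 0.00397.

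Inhibins and activins are dimers that share beta subunits and act on the pituitary's FSH output. Inha, the inhibin alpha subunit, was at 11.61, 10.11 and 11.82 at 5 µM, against 12.82, 11.94 and 12.76 at 1 µM, without overlap. Its difference of -1.33 ± 0.35 (SE) lay at the threshold (adjusted p = 0.0501, 0.00899 with the block, 0.0106 without array number 2 at 1 µM). No member of the 9 genes of inhibin, activin and anti-Müllerian hormone passed without the block. With it, Inha, Inhbb (-0.90), Amh (-1.15) and the activin antagonist Fst (-0.84) were lower, and Fstl3 (0.68) and Bmp4 (0.99) higher, at 5 µM. Of all genes 2.62% were lower and 4.26% higher with the block. Inha and Bmp4 passed without array number 2 at 1 µM (adjusted p = 0.0397 for Bmp4).

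The cytoskeletal and matrix lists lay on the other side. Of 17 genes of actin and smooth muscle, 16 differences were above 0 (6171 of all 14217 genes were), with a median of 0.65. Myh9, the heavy chain of non-muscle myosin, passed (0.87 ± 0.20, SE, adjusted p = 0.0216), 9 passed with the block (4.26% of all genes were higher there) and 5 without array number 2 at 1 µM (2.55% of all genes), all higher. Acta2, smooth muscle actin, was at 9.23, 9.81 and 10.82 at 5 µM, against 6.73, 8.74 and 8.47 at 1 µM, and the groups did not overlap (1.98 ± 0.55, adjusted p = 0.0718, 0.00134 with the block, 0.0216 without array number 2 at 1 µM). Of 28 collagen and matrix genes, Col4a2, a basement membrane collagen, rose by 1.02 ± 0.21 (adjusted p = 0.00828, with 1.1% of all genes higher). With the block 8 were higher, among them Fn1 (fibronectin, 1.71 ± 0.46, adjusted p = 0.0614, 0.00143 with the block and 0.0279 without array number 2 at 1 µM) and Spp1 (osteopontin, 1.44, 0.276 and 1.32e-04), and Timp3 was lower. There were 4 higher without array number 2 at 1 µM, Col4a2, Fn1, Col12a1 and Ccn2 (adjusted p = 0.0435 and 0.0027 for Col12a1 and Ccn2). Of all genes 4.26% were higher and 2.62% lower with the block, and 2.55% were higher without that array.

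Amino acid response genes, targets of the transcription factor ATF4, were above 0 in 21 of 23 cases with a median of 0.43. Over all genes 6171 of 14217 were above 0. Of the 23, 2 were called, both higher (1.1% of all genes were, and 4.26% with the block). Slc7a3, a transporter of cationic amino acids, was at 6.43, 8.30 and 7.86 at 5 µM, against 5.51, 5.80 and 5.10 at 1 µM (2.06 ± 0.36, SE, adjusted p = 0.00187), and Nupr1, a stress-induced nuclear protein, rose by 1.44 ± 0.37 (adjusted p = 0.0452). Both rose without overlap, and Trib3 (1.26), Chac1 (0.87) and Asns (0.94) passed with the block alone. The median step of this list was 0.16 in basal cells and 0.26 with cAMP. Slc7a3 moved by 1.15 ± 0.36 in basal cells, and the difference of its steps was 0.91 ± 0.51 (adjusted p = 1). Ddit4, a stress-induced inhibitor of the growth kinase mTOR, went the other way (-1.89, adjusted p = 0.487).

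For 22 mitosis genes the median was -0.22 with FSH, against -0.46 for the same step in basal cells and -0.52 with cAMP, and none passed in the FSH step by either fit. Top2a, a topoisomerase of dividing cells, was at 11.40, 10.74 and 11.45 at 5 µM, against 11.50, 11.41 and 12.13 at 1 µM, with overlap (-0.49 ± 0.24, adjusted p = 0.601). The 19 DNA replication genes had a median of -0.04, with none called.

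Retinoid handling gave 1 call of 14: Crabp2, a carrier of retinoic acid, was at 10.22, 8.19 and 10.73 at 5 µM, against 12.11, 10.58 and 12.62 at 1 µM, a fall of 2.06 ± 0.53 with overlap (SE, adjusted p = 0.0437). Nrip1 was also the only call among 13 estrogen-responsive genes. Greb1, an estrogen target, differed by -1.33 ± 0.39 (adjusted p = 0.0916, 0.00184 with the block). Ndrg1 rose by 0.96 ± 0.16 among 16 genes of hypoxia and glycolysis and Klf6 by 0.94 ± 0.23 among 19 immediate-early genes. Over all genes 1.1% rose and 0.682% fell. None passed among 13 genes of the Ah receptor and xenobiotic response, where Cyp1a1 differed by -0.05, 18 Nrf2 targets, 17 chaperones of the endoplasmic reticulum, 17 ovulatory genes or 12 p53 and apoptosis genes. With the block, further list members were called. Gstp1, a glutathione transferase, was higher (adjusted p = 0.00502 with the block), and Gsta4, of the same enzyme family, and Me1, malic enzyme, were lower (0.0406 and 0.0112) among the Nrf2 targets. Edem1, of the degradation of misfolded proteins, was higher (0.0475) among the chaperones. Adm, the peptide adrenomedullin, was higher and the oxygen-regulated factor Hif1a lower (9.59e-04 and 0.0352) among the hypoxia genes. Ier3, B2m, Irs2, Gadd45a and Gadd45b were higher (0.00741, 0.0286, 0.0179, 0.0267 and 0.00111), and Cldn11, of tight junctions, and the cyclin Ccnd2 lower (0.00753 and 0.0358). Without array number 2 at 1 µM, Me1 and the reductase Akr1b8, Areg, a ligand of Egfr, and the lactate transporter Slc16a3 were lower (0.0412, 0.0201, 0.00418 and 0.0228), and Irs2, Gadd45b and the phosphatase Dusp1 higher (0.00545, 0.0262 and 0.0382).

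**Figure D5:**
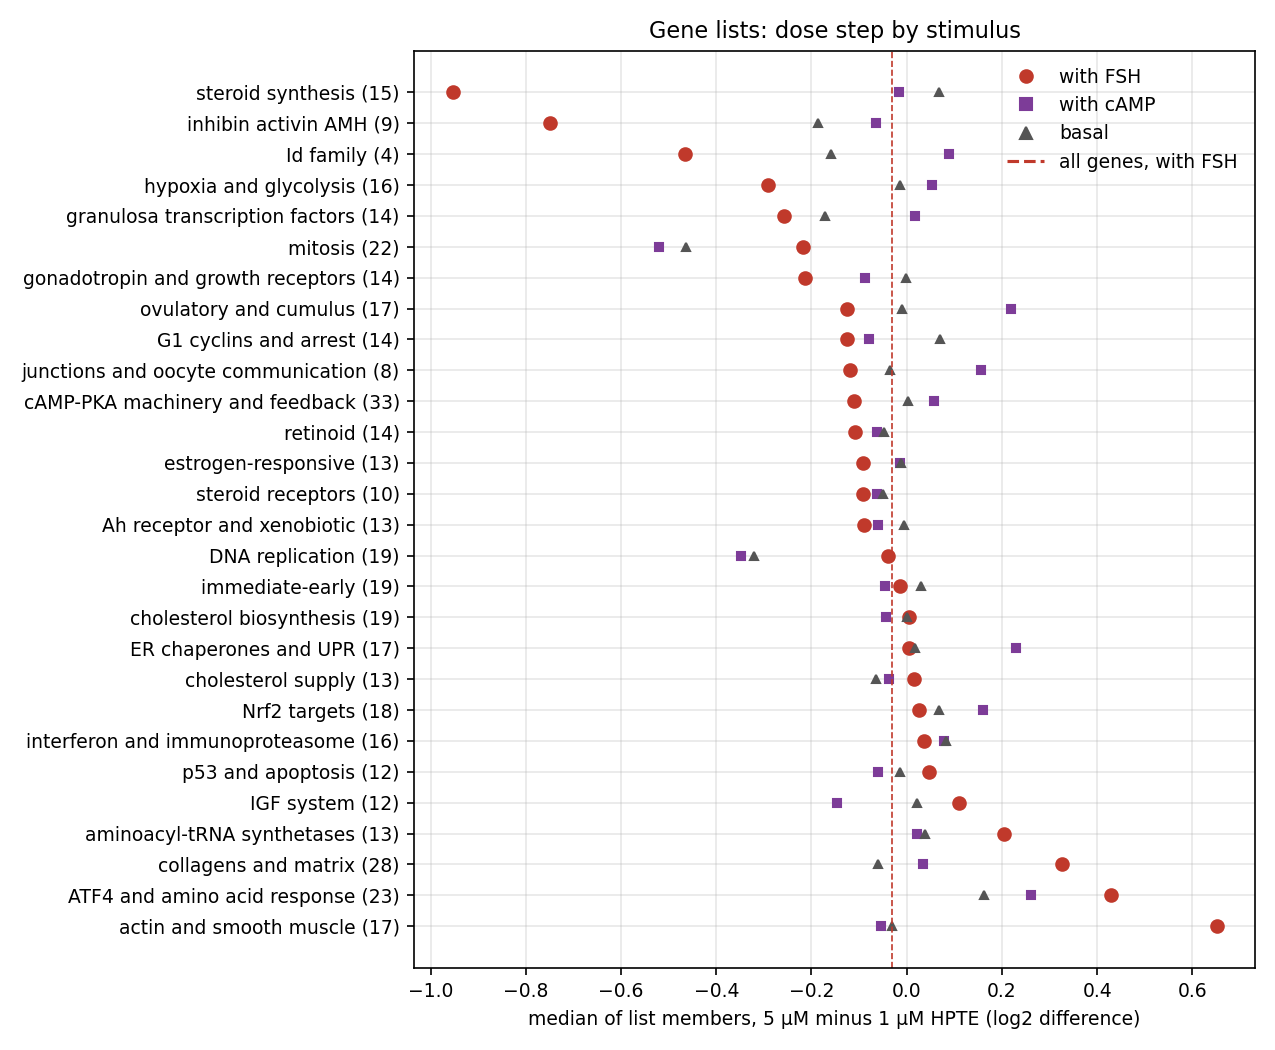
Median log2 difference, 5 minus 1 µM HPTE, over the members of 28 gene lists (number measured in brackets; marker lists and the list drawn from earlier results are not shown), with FSH (red circles), with cAMP (purple squares) and in basal cells (grey triangles), and the median of all genes with FSH as a dashed line. Steroid synthesis lies lowest (-0.95) and actin and smooth muscle highest (0.65) with FSH, and mitosis and DNA replication are lower in basal and cAMP cells than with FSH.

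Marker genes of other ovarian cells were read in the same arrays. The summed linear intensity of 11 granulosa cell markers was 11410 to 24910 at 5 µM and 27270 to 39940 at 1 µM. With the array number as a block 7 of them passed, all lower (2.62% of all genes were), none passed without it, and 3 passed without array number 2 at 1 µM, all lower (2.09% of all genes). The 9 theca and stroma markers summed to 3067 to 3946 at 5 µM and 4082 to 5117 at 1 µM with none called, and Cyp17a1 was called lower without array number 2 at 1 µM (adjusted p = 0.00478). Of 10 leukocyte markers Cd14 rose by 1.04 ± 0.25 (SE, adjusted p = 0.0302), with sums of 1061 to 2196 at 5 µM and 863.7 to 1824 at 1 µM. Over all genes 1.1% rose. Endothelial, oocyte and surface epithelium markers gave no call, with sums of 680.9 to 982.6, 328.5 to 823.5 and 434.7 to 534.2 at 5 µM, against 605.3 to 949.4, 773.1 to 853.9 and 487.4 to 556.9 at 1 µM. With the block, the oocyte marker Zp3 and the epithelial marker Epcam were lower (adjusted p = 0.0489 and 0.0383). The part of these markers in the results above was not tested.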

How the data were processed

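The study's 36 arrays are in one deposited table of linear intensity per probe set, made with RMA per the submitters' processing notes (no version is given in the sources used here). RMA corrects background, quantile-normalizes and summarises probes, so that arrays share one distribution. log2 of these values was taken. R 4.3.3 and limma 3.58.1 fitted 12 group means to 31042 probe sets (57 control probe sets were left out) with 24 residual degrees of freedom. Contrasts were adjusted by Benjamini-Hochberg, with calls at an adjusted p under 0.05. Symbols came from the platform annotation: 20826 probe sets had 1 symbol, 436 several and 9780 none. Of a gene's probe sets the one with the highest mean was used. Members, lists and tests were chosen with earlier results of these data known. Named were the 12 largest called changes each way without overlap, the genes behind the differences between stimuli, and list members.

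Arrays with the same number deviated together from their group means (r = 0.1002, 0.2581 and 0.8676 for the 3 pairs), so the block by number is given where it changes a call of a gene or list described. The first value is close to the limit of 0.1. In simulated data with 100 probe sets changed by 2-fold, limma called 66, and 97 of 100 changed by 4-fold. The simulated noise was independent between arrays, without the shared deviation of arrays with the same number. The number of arrays limits the precision. Alternatives tried were the block, quantile normalization, a filter on dim probe sets, a variance trend, fewer arrays and other rules for the stimulus genes.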

Additional observations from a re-analysis of the deposited data

Results flagged for a closer look

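The dose step differed between FSH-treated and basal cells for 3 probe sets by the test of the difference itself: C1qtnf7 by 1.86, Lmna by 1.25 and Ptgis by 1.86 on the log2 scale. With 1 array left out at a time, each of these passed in 2 of the 6 fits (adjusted p = 4.22e-04 to 0.101 for C1qtnf7, 0.00119 to 0.171 for Lmna, 0.00229 to 0.171 for Ptgis). Between FSH-treated and cAMP-treated cells it differed for 10 probe sets. Those with a single gene name were C1qtnf7 (1.99), Esm1 (2.29), Gpc3 (1.60), Ptgis (1.81), Vldlr (1.35) and Igdcc4 (-1.37). C1qtnf7 and Esm1 passed in 6 of 6 fits with an array left out, and the others in 2 of 6. None passed without the arrays numbered 3 (adjusted p = 0.415 for C1qtnf7 and Esm1 against cAMP).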

How the results depend on the processing

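The number of probe sets called in the dose step was 424. It was 1599 with the replicate block, 667 without number 2 of the FSH and cAMP groups at 0 µM, 21 without replicate 3 and 0 with the arrays of the groups compared only (1834 at an unadjusted p under 0.05). It was 2694 without array number 2 at 1 µM and with the block, an alternative chosen after seeing the data. Leaving out 1 array at a time gave 74 (without array number 1 at 1 µM) to 1119 (without number 2 at 1 µM), with 128 without 5 µM number 2, 218 without 5 µM number 3 and 112 without 1 µM number 3. For the difference between FSH and basal cells (3 probe sets) the same settings gave 32, 15, 0 (928 at an unadjusted p under 0.05), 0 (952) and 933. The filter on dim probe sets gave 8, the variance trend 1, and single arrays left out 0 (617 to 1115 at an unadjusted p under 0.05) to 203. For the difference between FSH and cAMP cells (10) they gave 124, 25, 0 (1106 at an unadjusted p under 0.05), 0 (1453) and 875, and single arrays left out 3 to 237. The median of the genes raised by cAMP was -0.416 with no minimum fold, a wider choice of genes by construction. All other medians kept their sign and moved by less than the spread between pairs. Of 91 named genes, 45 of them called, none lost its call with the block and 29 gained one, 22 lost it in at least 1 of the 6 fits without a single array (0 to 22 in each), 39 without replicate 3 and 45 with the compared arrays only, and no sign turned. Otherwise the cause of these changes was not tested. In data simulated with independent noise in every array, changes of 2-fold were called in 66 of 100 probe sets. The simulation held no shared deviation of arrays with the same number and no array against its label, so this rate need not hold here.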
